A study of Gallus gallus with 40 samples.

Results

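White striping (WS) is a growth-related myopathy of fast-growing broilers in which white lines appear along the fibers of the breast. The lines are known to hold fat and connective tissue that take the place of degenerating fibers, with immune cells among them. The pectoralis major of the chicken is built almost wholly of fast glycolytic fibers, so transcripts of other cells in such samples come from the tissue between the fibers and from blood. The comparison described here is that of breasts with severe WS against breasts without WS (non-WS).

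It comprised 8 of the 40 arrays of the series, 4 with severe WS and 4 with non-WS, taken by the titles of the samples. They belong to a set of 21 arrays on WS that also holds 7 mild WS and 6 moderate WS arrays. Each array was labelled as a separate replicate and carried single-color labelled RNA of the pectoralis major of a male ROSS broiler. The birds were commercial broilers from several farms, raised without an experimental treatment and graded by the number and thickness of the lines after slaughter.

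Several points limit the comparison. For the severe WS birds the label fields place the grade under wooden breast and give "no" for WS, whereas title, description and source name give severe WS, and the titles were followed. The labels of these 8 arrays give no age and no farm, and the published description of the study, which excluded wooden breast, found no unstriped bird in its flock. Where the 4 non-WS birds came from is therefore not given in the sources used here, and flock or age cannot be told apart from striping. On both slides the non-WS arrays took columns 1 and 2 of row 1 and the severe WS arrays columns 3 and 4 of row 1, so the place on the slide cannot be told apart from the group either. Replicates 1 and 2 of both groups were on slide 1, and replicates 3 and 4 on slide 2. All mild and moderate WS arrays lay in row 2. Mild WS birds 5 to 7 and moderate WS birds 5 and 6 were on slides 3 to 5, which held no severe WS or non-WS array. The intensities of these 2 grades are given without adjustment for slide. Row cannot be told apart from grade when they are set beside severe WS or non-WS.

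The 8 arrays were alike in quality. The median processed signal lay between 76.4 and 117 on the non-WS arrays and between 78.9 and 120.0 on the severe WS arrays. On these 8 arrays 66.9% to 72.7% of spots were well above background. The mild and moderate WS arrays were mostly brighter, with a median processed signal between 106 and 259. All 8 severe WS and non-WS arrays carried the profile of fast muscle. TPM1, which codes for tropomyosin, lay between 316470 and 357230 in normalized intensity in both groups. The fast troponin gene TNNC2 lay between 288350 and 308640 in severe WS and between 293540 and 316470 in non-WS, and the glycolytic enzyme gene GAPDH between 192370 and 215200 and between 194380 and 215200. In these 3 genes the 2 groups overlapped. Quantile normalization gives equal ranks the same value on every array, so overlap among the brightest probes was largely set by it.

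Of 32388 probes that were detected on every array of the WS set, 1 was differentially expressed at a false discovery rate (FDR) of 0.05 or less and an absolute fold change (|FC|) of 1.2 or more (limma). That is 0.00309% of the probes tested. It was higher in severe WS, and no probe was called lower. None of the 9425 named genes, each represented by its brightest probe, was called (0%). At an unadjusted p of 0.05 or less 1801 probes (5.56%) passed. With the |FC| of 1.2 added, 685 probes (2.11%) were higher and 1053 (3.25%) lower. The 4 severe WS birds lay above all 4 non-WS birds in 226 probes (0.698%) and below them in 501 (1.55%). At an FDR of 0.2 the calls numbered 3 (0.00926%). The median standard error (SE) of a log2 difference was 0.20, so the 95% confidence interval of a typical probe reached 0.42 to either side, a 1.34-fold difference.

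**Figure D1:**
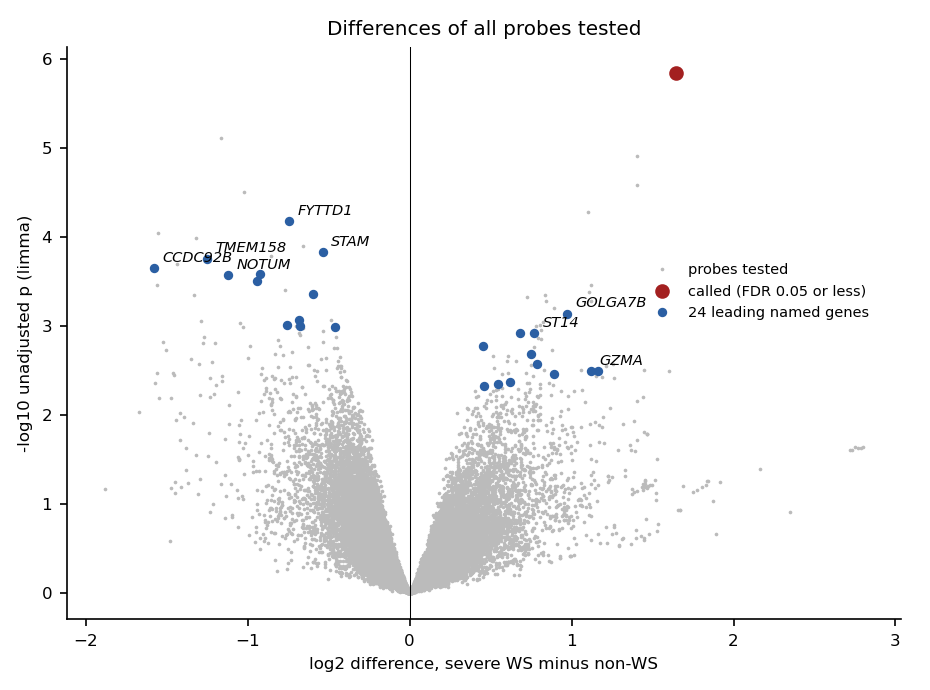
Log2 difference of severe WS minus non-WS (x axis) against the -log10 of the unadjusted p of limma (y axis) for the 32388 probes tested. The 1 called probe is red, and the 12 higher and 12 lower named genes of smallest p in their direction are blue. The called probe lies at 1.64 on the x axis, apart from all the others, and the blue points lie at the edge of the cloud.

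Single birds differed from each other about as much within a group as between the groups. The root mean square log2 distance between a severe WS bird and a non-WS bird had a median of 0.585 over 16 pairs, with a range of 0.488 to 0.640. It was 0.618 over the 6 pairs of non-WS birds and 0.568 over the 6 pairs of severe WS birds. The most distant pair of all, at 0.685, was a pair of severe WS birds on 1 slide.

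The called probe carries the accession XM_417586.5, which the gene tables used here do not pair with a symbol. Its normalized intensity was 56.3, 72.7, 95.3 and 82.7 in non-WS birds 1 to 4. In severe WS birds 1 to 4 it was 218, 249.6, 324 and 175. The lowest severe WS bird was thus well above the highest non-WS bird, and the probe was 3.13-fold higher on average (log2 difference 1.64 ± 0.22 SE, limma adjusted p = 0.0463, n = 4 per group). The difference was 1.87 on slide 1 and 1.42 on slide 2. The mild WS birds averaged 204 ± 42.1 (SD, n = 7) and the moderate WS birds 174 ± 49.96 (SD, n = 6), so both lay between non-WS and severe WS, nearer to severe WS. In 20 alternative fits the log2 difference stayed between 1.19 and 1.80, and the probe was called in 5 of them. With the 8 arrays fitted alone its adjusted p was 0.510.

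A pair of further probes without a symbol had the same course. XM_015297128.1 averaged 236 ± 62.5 in severe WS and 88.0 ± 17.2 in non-WS, with a log2 difference of 1.40 (limma adjusted p = 0.134). XM_015297127.1 averaged 234 ± 62.8 and 88.3 ± 22.4 (log2 difference 1.40, limma adjusted p = 0.203). In the other direction, XM_015283621.1 averaged 39.0 ± 8.00 in severe WS and 86.1 ± 3.64 in non-WS (log2 difference -1.17, limma adjusted p = 0.123). In each of these 3 probes the groups did not overlap, but the FDR criterion was not met. Without symbols they cannot be counted as separate genes, and they may share a gene with each other or with a named probe.

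Among the named genes, the 12 of smallest p with a lower level in severe WS had log2 differences of -1.58 to -0.46, and the 12 with a higher level had differences of 0.45 to 1.16. Their limma adjusted p ran from 0.306 to 0.794 and from 0.780 to 0.863, respectively, so none passed. The groups did not overlap in 11 of the 12 lower and in 7 of the 12 higher genes. Since these genes were picked by p from this very comparison, the counts describe the choice. Over all 9425 named genes the 4 severe WS birds lay below the 4 non-WS birds in 145 (1.54%) and above them in 60 (0.637%).

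Among the lower genes, STAM, an adaptor that sorts ubiquitinated receptors at endosomes, measured 1018, 1129, 1219 and 962 in non-WS birds 1 to 4. In severe WS birds 1 to 4 it measured 741, 779, 732 and 721, a span far narrower than that of the non-WS birds. Its log2 difference was -0.54 ± 0.11 SE (limma adjusted p = 0.430). Mild WS, at 835 ± 95.9, and moderate WS, at 826 ± 115, lay between the groups.

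NOTUM codes for a secreted enzyme that inactivates Wnt proteins. Its level was 541, 364, 617 and 400.3 in non-WS birds 1 to 4 and 172, 198, 198 and 327 in severe WS birds 1 to 4. All severe WS birds were lower than all non-WS birds, with severe WS bird 4 close to them (log2 difference -1.12 ± 0.24 SE, limma adjusted p = 0.506). Mild WS (189 ± 55.3) and moderate WS (201 ± 51.5) were as low as severe WS (223 ± 70.0).

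CCDC92B had the largest difference of the 12. It measured 2365, 2621, 1635 and 2288 in non-WS birds 1 to 4 and 957, 547, 552 and 1014 in severe WS birds 1 to 4 (log2 difference -1.58 ± 0.33 SE, limma adjusted p = 0.483). The striped grades again resembled each other, with 967 ± 391 in mild WS and 950 ± 324 in moderate WS. PTH2R, a receptor of the parathyroid hormone family, averaged 87.3 ± 22.4 in severe WS and 165 ± 40.2 in non-WS, and its groups came close at 120 against 125.

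FYTTD1, which takes part in export of mRNA from the nucleus, had the smallest p of all named genes, each taken by its brightest probe (limma adjusted p = 0.306). It measured 55.0, 47.2, 73.0 and 58.4 in non-WS birds 1 to 4 and 28.7, 36.4, 43.7 and 30.8 in severe WS birds 1 to 4. This gene was dim, and in contrast to the genes above its mild WS (66.3 ± 13.0) and moderate WS birds (66.1 ± 6.76) were near the level of non-WS, all above the severe WS birds. Its difference of -0.74 became -0.33 with the normexp background correction.

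The remaining lower genes were TMEM158, MME, PRKCDBP, TMEM259, PROX1, SGCD and LOC107051846. MME, the membrane peptidase neprilysin, averaged 33.6 ± 7.22 in severe WS and 64.3 ± 11.6 in non-WS. It was as dim as FYTTD1, at 24.1 to 39.8 in the severe WS birds. PROX1, the homeobox factor of lymphatic endothelium, was measured by 3 probes with log2 differences of -1.02 to -0.68. Its brightest probe had a limma adjusted p of 0.794. A dimmer probe of PROX1 had a limma adjusted p of 0.203, below that of FYTTD1, and the groups overlapped in neither probe. SGCD, the delta subunit of the sarcoglycan complex of the muscle membrane, averaged 2022 ± 233 against 2782 ± 252. PRKCDBP, a component of caveolae, was the 1 gene of the 12 whose groups overlapped: severe WS birds 1 to 3 lay between 2482 and 3511, but severe WS bird 4, at 4782, lay among the non-WS birds (4485 to 5268).

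**Figure D2:**
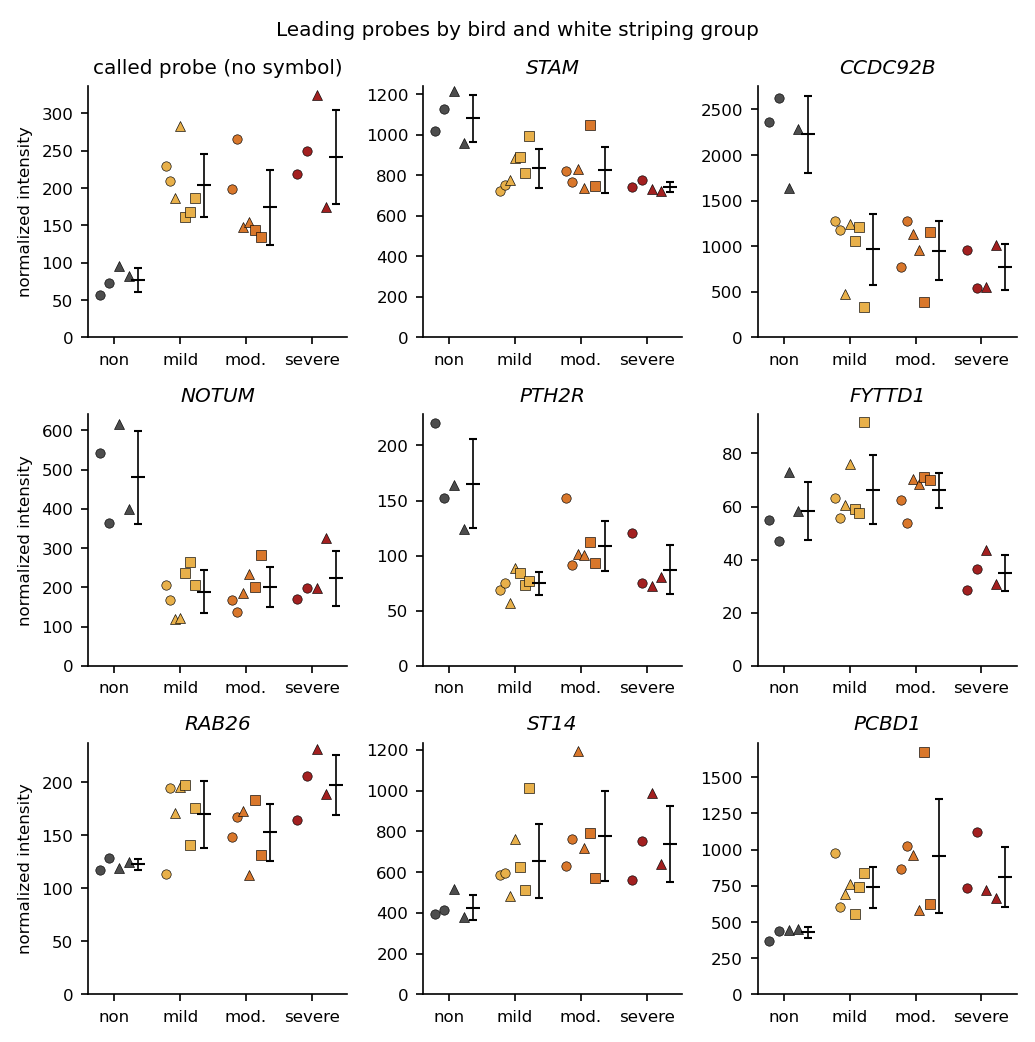
Normalized intensity (y axis, from 0) of the called probe and 8 leading genes in each bird of the 4 groups (x axis: non-WS, mild, moderate and severe WS); circles are arrays of slide 1, triangles of slide 2 and squares of the other slides, and the bars give the mean and SD. In NOTUM, CCDC92B and the called probe the means of mild and moderate WS lie nearer to severe WS than to non-WS, whereas in FYTTD1 they lie nearer to non-WS.

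Of the higher genes, RAB26, a small GTPase of secretory vesicles, measured 118, 129, 119 and 125 in non-WS birds 1 to 4 and 165, 206, 232 and 189 in severe WS birds 1 to 4 (log2 difference 0.68 ± 0.17 SE, limma adjusted p = 0.797). ST14, the membrane serine protease matriptase, lay between 378 and 515 in non-WS and between 562 and 990.3 in severe WS. PCBD1, an enzyme of tetrahydrobiopterin recycling, lay between 372 and 454 and between 665 and 1120, respectively. These 3 genes did not overlap between the groups. Mild and moderate WS were near the severe WS level in ST14, at 654 ± 181 and 778 ± 220, and in PCBD1, at 739 ± 144 and 955 ± 396, but lay between the groups in RAB26, at 170 ± 31.9 and 153 ± 26.8.

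The other higher genes were GOLGA7B, MRPS18C, WDR62, GLRX, GZMA, TARBP2, TMEM119, SCAMP3 and LOC100859020. MRPS18C, a protein of the mitochondrial ribosome, averaged 10476 ± 1188 in severe WS and 7641 ± 646 in non-WS. GLRX, a glutaredoxin that reduces protein thiols, averaged 6726 ± 1319 and 3965 ± 1150, with overlapping groups. GOLGA7B had the smallest p of the 12 (limma adjusted p = 0.780), and its groups overlapped because severe WS bird 4, at 47.3, lay within the non-WS range.

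The comparisons of mild and moderate WS with non-WS rest on the same 4 non-WS arrays, so they are given as values only. Against these birds 1 probe was called in mild WS (0.00309%) and 0 in moderate WS (0%). For all 12 higher genes the mild and the moderate differences were positive too. Of the 12 lower genes 11 were negative in mild WS and 10 in moderate WS, the exceptions being FYTTD1 (0.09 and 0.18) and, in moderate WS, SGCD (0.08).

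**Figure D3:**
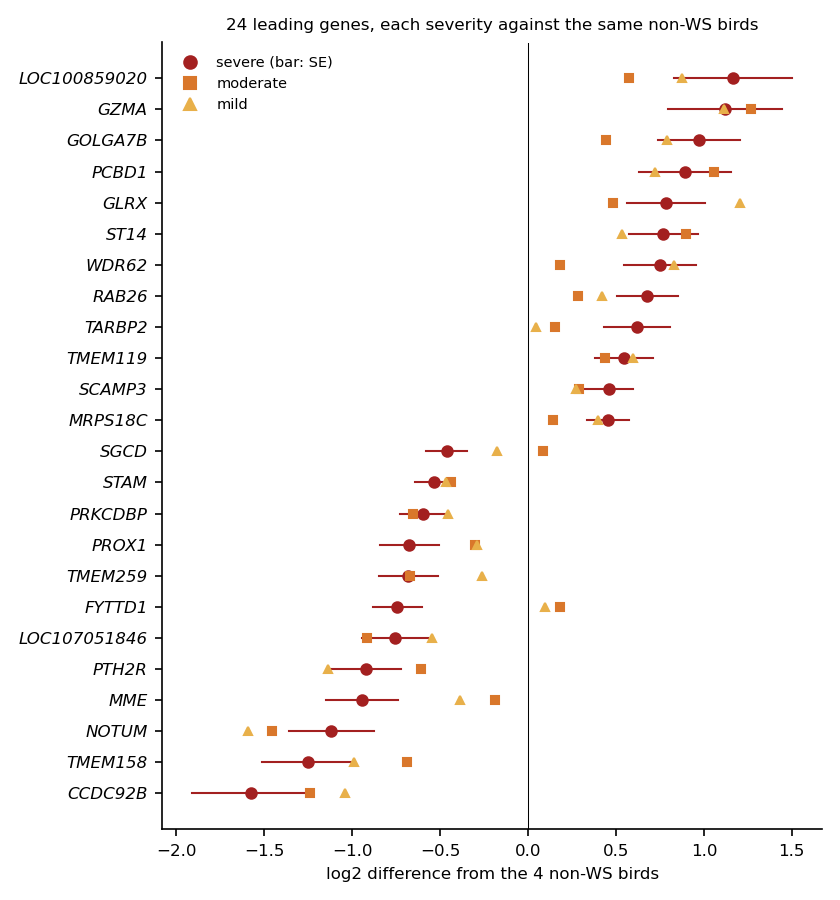
Log2 difference from the 4 non-WS birds (x axis) for the 24 leading genes (y axis) in severe WS (circles, with a bar of 1 SE to either side), moderate WS (squares) and mild WS (triangles). All 3 grades are compared with the same non-WS birds. Most symbols of a gene lie on the same side of 0, which these shared birds and the choice of the genes favor.

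Few probes were detected in 1 group alone. Of all 56401 probes, 6 were well above background on all severe WS arrays and on none of the non-WS arrays, and 4 had the opposite pattern. All were dim, with averages of 20.2 to 61.6 in the group in which they were detected. Only 1 of them had a symbol, RGR, an opsin-related receptor known from the eye. It averaged 56.7 in non-WS and was not well above background in severe WS, at least 2.62-fold higher in non-WS when set against the lowest signal detected.

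Genes were also described by lists, and their counts are read beside those of all 9425 named genes, of which 48.0% had a positive difference and whose median difference was -0.01. A list gene is counted below as nominally higher or lower at an unadjusted p of 0.05 or less with a |FC| of 1.2 or more. Of all named genes 191 (2.03%) were nominally higher and 280 (2.97%) lower. No gene of any of the 30 lists passed the FDR.

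The erythrocyte list stood lowest. All 8 genes measured had a negative difference, with a median of -0.63, and 1 of them was nominally lower. Chicken erythrocytes keep their nucleus and their RNA, and hemoglobin genes are their most abundant transcripts. HBA1, an alpha globin, measured 37180, 34580, 27410 and 26530 in non-WS birds 1 to 4 and 24075, 15279, 16110 and 23670 in severe WS birds 1 to 4. HBBA, the beta globin of the adult, measured 21685, 18580, 16070 and 14855 in the former and 13954, 9180, 9497 and 13610 in the latter. In both globins every severe WS bird lay below every non-WS bird, by a narrow margin.

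SLC4A1, the anion exchanger of the erythrocyte membrane, followed with 2692, 2599, 2086 and 2433 in non-WS birds 1 to 4 and 1840, 1659, 1153 and 1611 in severe WS birds 1 to 4. Its log2 difference was -0.66 ± 0.23 SE (limma adjusted p = 0.863), that of HBA1 -0.68 ± 0.33 (0.893) and that of HBBA -0.63 ± 0.34 (0.903). HBAD, another alpha-type globin named after its values were seen, averaged 6942 ± 2005 and 10340 ± 739. The groups did not overlap in 4 of the 8 genes (50%), against 1.54% of all named genes, but globin genes share their cells, so that these 4 genes are not independent of each other. HBE1, dim at 37.2 ± 14.5 against 79.1 ± 24.1, overlapped, as did ALAS1, CA2 and EPB41.

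The median of the 8 erythrocyte genes, relative to the mean of the non-WS birds, lay between -0.92 and -0.35 in the severe WS birds and between -0.18 and 0.20 in the non-WS birds. It was -0.51 to -0.73 whichever bird was left out. In mild WS the median difference was -0.59 and in moderate WS -0.53. The median was thus negative in all striped grades, but no blood gene was called, and in moderate WS birds 4 and 5 HBAD measured 13227 and 14881, above every non-WS bird. Less blood in a sample and less RNA per cell cannot be told apart in such tissue, and the part of blood in the other differences was not tested.

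The extracellular matrix list had a positive difference in 35 of 47 genes (74.5%), with a median of 0.22. Of these, 4 (8.51%) were nominally higher and 0 (0%) lower, and 1 gene did not overlap between the groups. LUM, a proteoglycan that orders collagen fibrils, measured 2814, 3610, 4152 and 3857 in non-WS birds 1 to 4 and 3712, 6504, 6658 and 6048 in severe WS birds 1 to 4. Severe WS bird 1 thus stayed among the non-WS birds while the others exceeded them (log2 difference 0.64 ± 0.27 SE, limma adjusted p = 0.874).

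COL6A2, a chain of collagen VI, averaged 1271 ± 236 against 899 ± 235. LOXL3, an enzyme that crosslinks collagen, averaged 2169 ± 332 against 1549 ± 360.4. FBLN2, a fibulin of elastic fibers and basement membranes, was the gene without overlap, at 148 to 205 against 116 to 139. Its 6 probes had log2 differences of 0.195 to 0.43, with 0.41 for the probe shown. The other probes of FBLN2 had an unadjusted p above 0.05 (limma). Among the fibroblast markers, COL1A2 lay between 12130 and 24930 in severe WS and between 12300 and 18030 in non-WS, and COL3A1 between 61270 and 103200 and between 64430 and 89090, so that both overlapped.

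By bird, the median of the 47 matrix genes was -0.20 in severe WS bird 1 and 0.28, 0.38 and 0.46 in severe WS birds 2 to 4, against -0.13 to 0.10 in the non-WS birds. Without severe WS bird 1 the median difference was 0.36, and without severe WS bird 4 it was 0.12. It was 0.29 in mild WS and 0.43 in moderate WS.

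**Figure D4:**
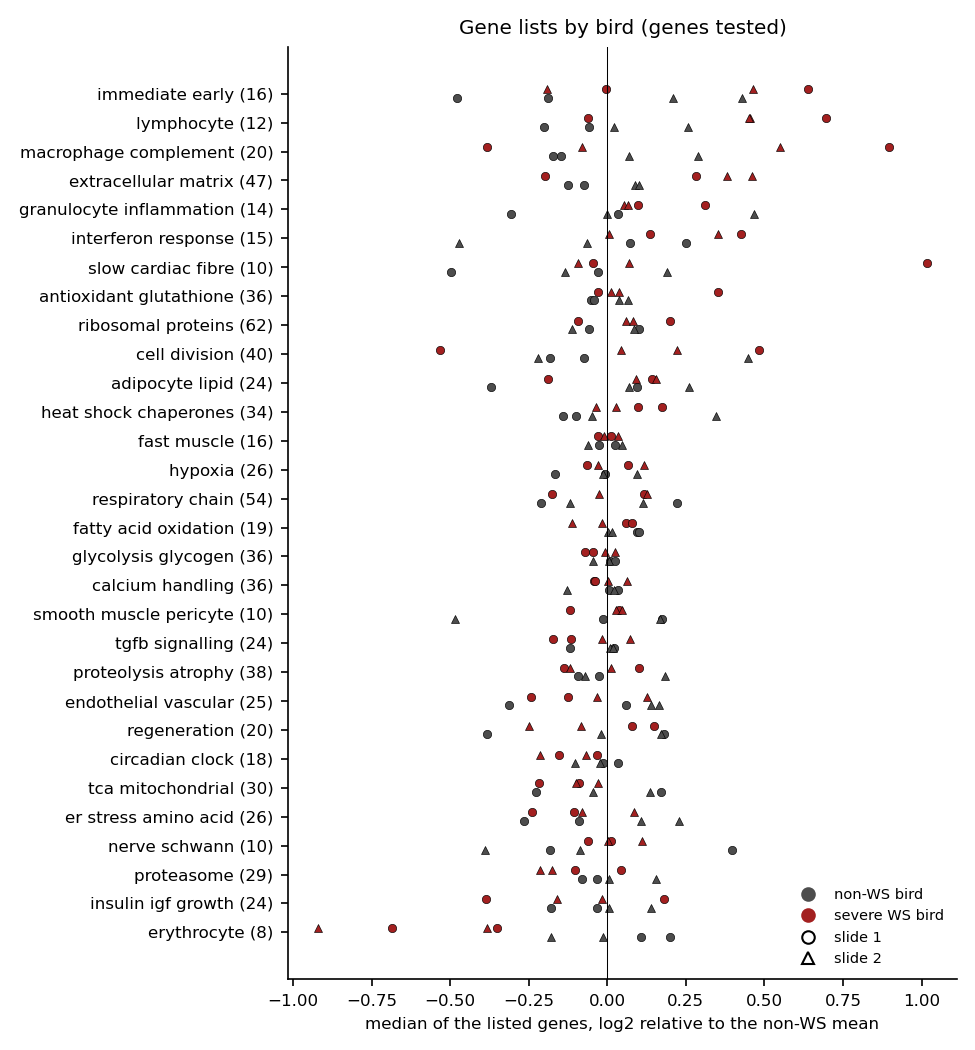
Median of the genes of each list in every bird, as a log2 difference from the mean of the non-WS birds (x axis), for the 30 lists (y axis, number of genes measured in parentheses); severe WS birds are red and non-WS birds gray, with circles for slide 1 and triangles for slide 2. The erythrocyte list is the 1 list in which the red and gray symbols do not overlap.

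Immune genes were higher in some severe WS birds and not in others. All 12 lymphocyte genes measured had a positive difference (100%), with a median of 0.34, and 1 was nominally higher. The median was 0.15 without severe WS bird 2 and 0.49 without severe WS bird 1. GZMA, the granzyme of cytotoxic lymphocytes, measured 87.7, 42.1, 137 and 154 in non-WS birds 1 to 4 and 156, 196, 232 and 244 in severe WS birds 1 to 4. Its log2 difference was 1.12 ± 0.32 SE (limma adjusted p = 0.863), and the groups only just did not meet. CD8A and CD3E, which mark T cells, overlapped, at 61.6 to 155 against 30.1 to 96.9 and at 517 to 839 against 431 to 567.

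Genes of antibody-secreting cells varied widely between the severe WS birds. IGLL1, annotated as an immunoglobulin light chain gene and named after its values were seen, measured 4756, 2605, 1329 and 2179 in non-WS birds 1 to 4. In severe WS birds 1 to 4 it measured 18361, 67633, 7593 and 7101, so every severe WS bird exceeded every non-WS bird, with severe WS bird 2 far ahead. JCHAIN, which joins secreted immunoglobulin units, measured 585, 1753, 231 and 196 in severe WS birds 1 to 4 and 78.6 to 200.5 in non-WS. MZB1, a chaperone of immunoglobulin assembly also named after its values were seen, measured 271, 656, 79.1 and 70.6 against 44.7 to 88.6. In JCHAIN and MZB1 severe WS birds 1 and 2, both on slide 1, stood far above the non-WS birds, and severe WS birds 3 and 4 lay within their range or just above it.

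The log2 difference of IGLL1 was 2.72 ± 1.098 SE (limma adjusted p = 0.863), the largest of all named genes, and its 5 probes gave values of 2.72 to 2.80. Without severe WS bird 2 it was 1.92. That of JCHAIN was 1.69 ± 0.85 (limma adjusted p = 0.893) and 0.98 without that bird. Other grades spread as widely, with IGLL1 at 17964 ± 19570 in mild WS and 43596 ± 49328 in moderate WS. Mild WS birds 1 to 3, on slides 1 and 2, measured 2783, 1155.5 and 2210. Birds 1 and 3 thus lay within the non-WS range and bird 2 below it. With slide in the fit the log2 difference of IGLL1 was 0.87 in mild WS (limma adjusted p = 0.742) and 2.48 in moderate WS (limma adjusted p = 0.286).

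The macrophage and complement list had a positive difference in 18 of 20 genes (90%), with a median of 0.24, and none was nominally higher or lower. Severe WS bird 2 weighed on it, since the median was 0.07 without that bird. TLR4, a sensor of bacterial lipopolysaccharide, averaged 650.2 ± 317 in severe WS and 379 ± 104 in non-WS, and FCER1G, a subunit of Fc receptors, 2386 ± 1500.1 and 1490 ± 273. The scavenger receptor MARCO lay between 74.2 and 147 in severe WS and between 40.5 and 195 in non-WS. In all 3 genes the groups overlapped.

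**Figure D5:**
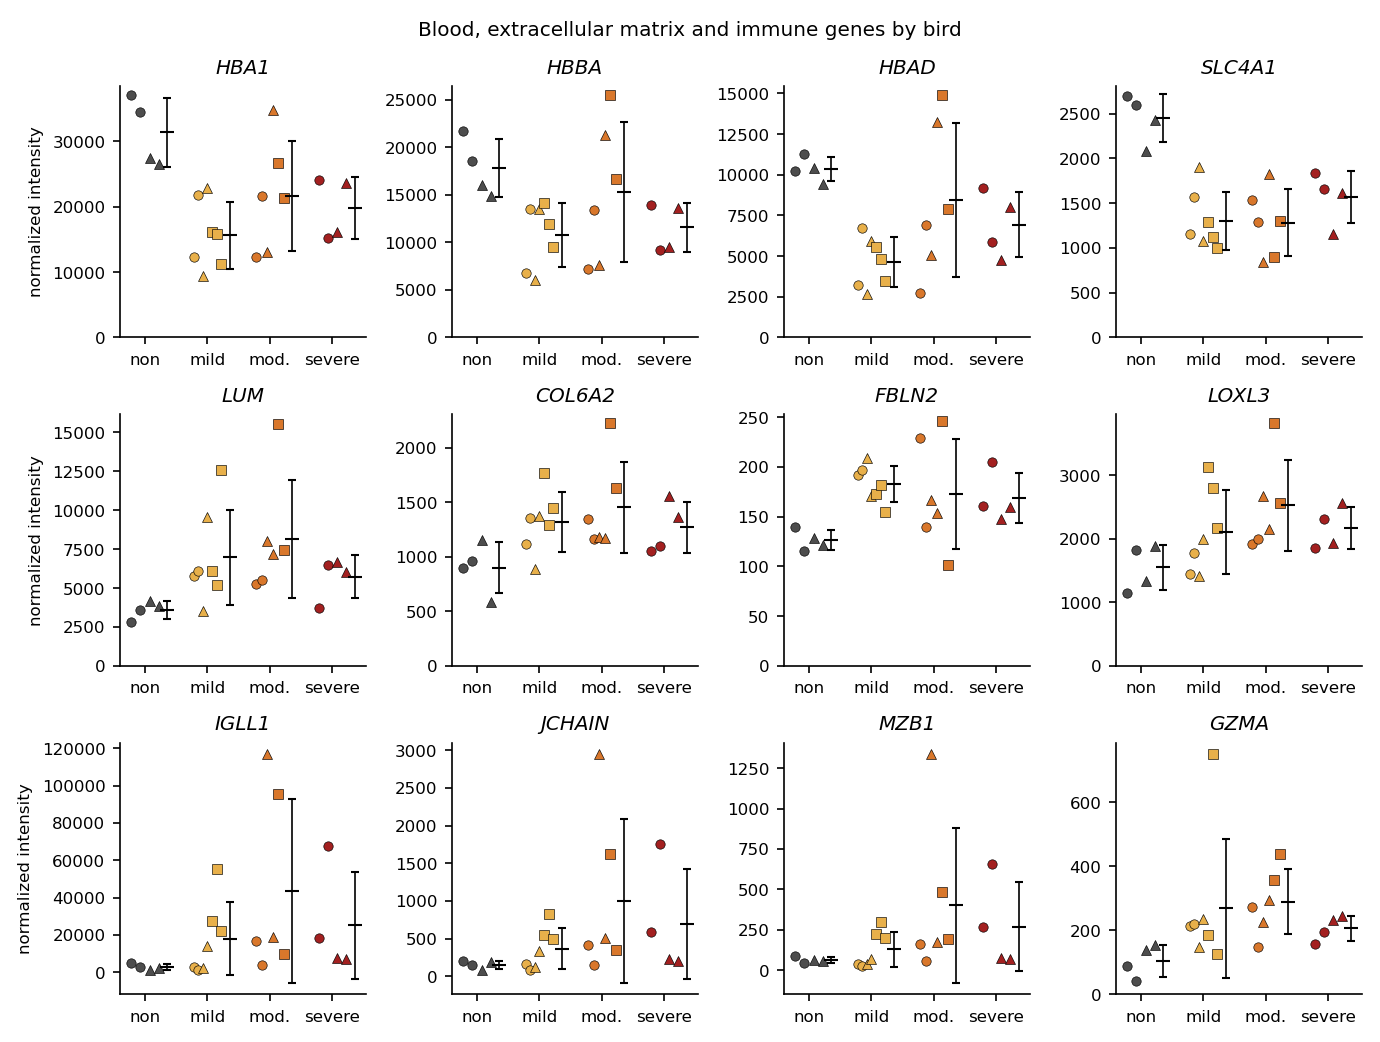
Normalized intensity (y axis) of blood genes (top row), extracellular matrix genes (middle row) and immune genes (bottom row) in each bird of the 4 groups (x axis), with the mean and SD as bars and symbols by slide as circles (slide 1), triangles (slide 2) and squares (other slides). The severe WS birds lie below the non-WS birds in the 4 blood genes, and in IGLL1, JCHAIN and MZB1 severe WS bird 2 exceeds the other severe WS birds.

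Genes of the TGF-beta and BMP pathway had no common direction, with 11 of 24 positive and a median of -0.03, but 4 (16.7%) were nominally lower and 0 (0%) higher. These 4 were SMAD7 and SMAD6, which inhibit the pathway, ID2, a target of BMP signals, and BMPR1A, a receptor for BMPs. SMAD7 measured 203.3, 203.3, 119 and 186 in non-WS birds 1 to 4 and 112, 120, 45.4 and 93.2 in severe WS birds 1 to 4. Non-WS bird 3 alone reached into the severe WS range (log2 difference -1.001 ± 0.28 SE, limma adjusted p = 0.863). SMAD6 averaged 456 ± 125 against 750 ± 185, ID2 890 ± 216 against 1295 ± 205, and BMPR1A 1036 ± 76.7 against 1275 ± 92.0. The other 2 probes of BMPR1A had log2 differences of -0.06 and -0.29. In mild and moderate WS the differences of SMAD7 were -1.42 and -1.29, and those of BMPR1A -0.02 and -0.12.

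Fat genes were not set apart as a list. The adipocyte and lipid list had 12 of 24 positive differences, a median of 0.04, and 1 gene nominally higher and 1 lower. PLIN1, the coat protein of lipid droplets, measured 513, 1641, 2898 and 985 in non-WS birds 1 to 4 and 987, 3067, 3155 and 3516 in severe WS birds 1 to 4, with severe WS bird 1 well below the other 3. Its log2 difference was 0.95 ± 0.49 SE (limma adjusted p = 0.893). The adipokine gene ADIPOQ lay between 9447 and 11980 in severe WS and between 7245 and 14050 in non-WS, and the fatty acid carrier FABP4 between 7717 and 20160 and between 8406 and 15290. CIDEC, also an adipocyte marker, lay between 257 and 840.2 in severe WS and between 143.6 and 776.5 in non-WS. Its log2 difference was 0.79 (limma adjusted p = 0.911), beside 0.26 for FABP4 and -0.01 for ADIPOQ. APOA1, an apolipoprotein, was the gene nominally higher, with 156840 ± 13313 against 101450 ± 32440, and the elongase ELOVL6 the gene nominally lower, with 63.8 ± 11.3 against 87.0 ± 12.8.

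Energy metabolism differed little at the level of lists. The median difference was -0.01 over 36 genes of glycolysis and glycogen, 0.00 over 54 genes of the respiratory chain and -0.01 over 19 genes of fatty acid oxidation. LDHA, which turns pyruvate into lactate, lay between 77490 and 113030 in severe WS and between 121330 and 146240 in non-WS, without overlap (log2 difference -0.43 ± 0.22 SE, limma adjusted p = 0.893). PGM1, which links glycogen to glycolysis, lay between 104920 and 116250 and between 119430 and 136390, also without overlap. The probes of each gene differed in size, with log2 differences of -0.14 for the other probe of LDHA and -0.05 for that of PGM1. The probe of LDHA shown averaged 98160 in severe WS and 131700 in non-WS, and its other probe 123800 and 136800. In moderate WS the difference of LDHA was 0.02. DLAT, a subunit of pyruvate dehydrogenase, averaged 588 ± 73.6 against 711 ± 35.2 and was the 1 gene nominally lower of 30 mitochondrial matrix and carrier genes, of which 9 (30%) were positive.

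In the fast muscle list the median difference was 0.01 over 16 genes, and 1 of them, LDHA, did not overlap in the probe used. TNNT3, the fast troponin T, averaged 230550 ± 26386 against 246500 ± 20005. The slow and cardiac fiber genes hung on severe WS bird 2. MYH15, a slow and cardiac myosin of birds, measured 1412 in that bird and 127 to 151 in the other severe WS birds, against 53.2 to 338 in non-WS. TNNT2, the cardiac troponin T, was at 5283 in the same bird and at 4762 in non-WS bird 4, and between 676 and 1369 in the other 6. The median of this list was 1.02 in severe WS bird 2 and between -0.09 and 0.07 in the others with severe WS.

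Among 36 genes of calcium handling 16 were positive, with a median of -0.01 and 2 (5.56%) nominally lower. CACNA2D1, a subunit of the voltage-gated calcium channel of the fiber, lay between 4968 and 6931 in severe WS and between 7312 and 9533 in non-WS (log2 difference -0.45 ± 0.13 SE, limma adjusted p = 0.863). SLC8A3, a sodium-calcium exchanger, was dim and averaged 45.8 ± 21.8 against 66.4 ± 18.2, with overlap. The ryanodine receptor gene RYR3 averaged 8065 ± 1290 against 9888 ± 1439 (log2 difference -0.30, with -0.09 for both of its other probes). In mild and moderate WS the differences of CACNA2D1 were -0.15 and -0.12.

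Hypoxia genes were balanced, with 13 of 26 positive and a median of 0.01. EGLN1, the oxygen sensor that marks HIF1A for breakdown, was the gene nominally lower, at 5818 to 9900 in severe WS against 8697 to 12086 in non-WS. HIF1A itself overlapped, at 65.8 to 94.6 against 37.2 to 109, and its 2 probes differed in sign (log2 differences 0.37 and -0.28). Of 29 proteasome genes 6 (20.7%) were positive, with a median of -0.11. PSMD2, a regulatory subunit, was the 1 nominally lower gene, at 5367 ± 1334 against 7143 ± 638 with overlap. By bird the proteasome medians of the groups overlapped, at -0.22 to 0.04 in severe WS and -0.08 to 0.16 in non-WS.

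Ribosomal protein genes had the opposite balance, with 49 of 62 positive (79.0%) but a median of only 0.07. By bird the medians overlapped, at -0.09 to 0.20 in severe WS and -0.11 to 0.10 in non-WS. Without severe WS bird 2 the median difference was 0.01. RPL35A averaged 331 ± 22.5 in severe WS and 235 ± 47.1 in non-WS, without overlap, and RPL31 1724 ± 357 and 1093 ± 399.1. RPL27A, 1 of the 13 negative genes, averaged 76408 ± 13939 against 94786 ± 7921, with overlap. Immediate early genes, which respond within minutes to stimuli, had 13 of 16 positive and a median of 0.35, and the slides disagreed: the median was 0.67 on slide 1 and -0.10 on slide 2. EGR1, a factor of this class, lay between 445 and 3441 in severe WS and between 420.2 and 893 in non-WS. Without non-WS bird 2 the median of this list was 0.06.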

How the data were processed

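The authors hybridized pectoralis major RNA of single broilers to custom single-color Agilent arrays and quantified the scans with Feature Extraction. The deposited scanner files give per spot a background-subtracted processed signal intensity, median spot and background intensities and flags, without normalization between arrays. The deposited value table holds intensities normalized by the authors (filters, quantile normalization and ComBat by their methods; scale linear, batch not given in the sources used here), with medians of 462 to 485 per array, and served as an alternative.

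Spots of a probe were averaged (755 probes had more than 1 spot). Of 56401 probes, 25956 were named through RefSeq accessions of the reference gene table and 258 through the study's gene list; 30187 stayed unnamed. A probe was kept if all 21 WS arrays showed it well above background, without a flag and with a processed signal no lower than 20. Signals were quantile normalized and put on the log2 scale. The model, with terms for group and slide, was fitted in limma (version 3.58.1, under R 4.3.3). Fitting the 4 groups together shares their variance. P values were adjusted by Benjamini-Hochberg over all probes kept. The p values set a difference against the spread between birds within groups, which limma estimated over all 21 WS arrays with slide in the model. Intensities in the text are normalized, linear and given with SD. Levels are not compared between probes. How many birds were used sets the precision.

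A gene was represented by its brightest probe. Named are the 12 higher and 12 lower genes of smallest p, up to 4 genes per list by p, up to 5 abundant fast muscle genes, cell type markers and genes detected in 1 group only. Members and lists were chosen with earlier results of these data known. The procedure was tested on simulated data.

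Alternatives were normexp (offset 50; on median spot signals, in place of the mean signals planned), scaling to the 75th percentile, the authors' values, other detection filters, no slide term, slide as random block, a replicate block, the 8 or the 16 arrays of slides 1 and 2 alone, the methods' t-test after ComBat by slide, an FDR of 0.2, no |FC| criterion, single slides and each bird left out. Keeping the probes detected on the 8 arrays was chosen after seeing the data. All WS arrays carried the same scan day.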

Additional observations from a re-analysis of the deposited data

Results flagged for a closer look

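Among 304 groups of 4 birds (both groups of each gene named), 12 held a bird far from the other 3, with a gap to its nearest neighbor above the 95% critical share (0.829) of the whole range. Chance flags about 1 in 20 such groups.

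Of the severe WS birds, bird 1 was low in 3 genes: LUM at 3712 (others 6048 to 6658), PLIN1 at 987 (3067 to 3515) and the ribosomal gene RPL35A at 298 (340.5 to 345). Bird 2 was high in MYH15 at 1412 (127 to 151) and in the small heat shock protein gene HSPB2 at 2991 (1241 to 1318); without this bird the log2 difference of HSPB2 was 0.42 in place of 0.73. Bird 3 was low in TPX2, a spindle gene, at 792 (1035 to 1080).

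Of the non-WS birds, bird 1 was low in PCBD1 at 372 (441 to 454) and in ACE, the angiotensin converting enzyme of endothelium, at 603 (1433 to 1562). Bird 2 was high in WDR62 at 302 (188 to 196). Bird 3 was low in GOLGA7B at 27.9 (48.4 to 52.5) and in SMAD7 at 119 (186 to 203). Bird 4 was high in TMEM119 at 3355 (2494 to 2609).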

How the results depend on the processing

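The count of 1 called probe was 0 with normexp, the authors' values, no detection filter, detection in 1 of the groups, the 8 or 16 arrays alone and the methods' t-test; it was 3 at an FDR of 0.2 and 0 to 3 with a bird left out (3 without severe WS bird 4, 0 without any other). With the replicate block it was 0, and 1825 probes had an unadjusted p of 0.05 or less in place of 1801. For each bird the mean of its group was first subtracted from every probe. In what remained, same-numbered birds of the 2 groups correlated at 0.0609 to 0.14 and differently numbered ones at -0.197 to 0.127. Same-numbered birds also shared a slide, and slide was not removed from these values. Severe WS birds 1, 2 and 4 correlated best with the same-numbered non-WS bird, and severe WS bird 3 with non-WS bird 2. These correlations do not settle whether the numbers mark pairs, and the main fit did not take them as pairs. The count stayed at 1 with the 75th percentile, no slide term, the random block, no |FC| criterion and the added filter. The adjusted p of the called probe ran from 0.00887 to 0.510. Probes at an unadjusted p of 0.05 or less numbered 1183 with no slide term, 2843 by the methods' t-test, 2753 without severe WS bird 1 and 3207 of 56401 without a filter. The cause was not tested.

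Differences of genes covered by the naming rule turned sign on single slides: on slide 2 ANGPT2 (0.0480), PDIA3 (-0.0737), MYBPC2 (-0.133), CCL4 (-0.488), SOCS3 (-0.410), GADD45B (-0.0939), MYH15 (-0.493) and TNNT2 (-0.715), and on slide 1 IL18 (0.222), SOCS2 (0.0153), PSMC1 (0.0795), ATP2A2 (0.0663) and PDHA2 (0.0942). With a bird left out MYBPC2 ranged from -0.0600 (without non-WS bird 2) to 0.281, TNNT2 from -0.117 (without severe WS bird 2) to 1.18 and ATP2A2 from -0.262 to 0.121 (without non-WS bird 3). In 3310 other values of genes and probes the direction and the side of the threshold stayed as reported. No named gene was called and the fits share arrays, so this count was largely set in advance and is no measure of robustness. List medians moved by more than the spread between birds in 6 cases, all close to 0: fast muscle (-0.08 with the 75th percentile, -0.05 without non-WS bird 2), glycolysis (-0.08 with the 75th percentile), TGF-beta (0.06 without non-WS bird 1), fatty acid oxidation (0.08 without severe WS bird 3) and antioxidants (-0.03 without severe WS bird 2). With 4 birds a group, differences below about 1.34-fold lay within the interval of a typical probe.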

Other observations

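Some genes outside the lists, all chosen after their values were seen, had levels in non-WS birds that lay apart from those of the severe WS birds. CXXC5, a zinc finger protein that restrains Wnt signalling, measured 2701, 1203, 2292 and 1208 in non-WS birds 1 to 4 and 640, 1061, 540.3 and 802 in severe WS birds 1 to 4 (log2 difference -1.23 ± 0.37 SE, limma adjusted p = 0.863), with 725 ± 181 in mild WS and 825 ± 579 in moderate WS. SEMA6D, a transmembrane semaphorin, averaged 59.3 ± 19.5 against 145 ± 37.1, and GDNF, a growth factor for motor neurons, 187 ± 37.8 against 350.0 ± 103. DUSP26, a phosphatase, averaged 1747 ± 374 against 4170 ± 1618. ALOX5, which starts leukotriene synthesis, was at 427 ± 170 in severe WS and 198 ± 53.7 in non-WS. In these 5 genes the groups did not overlap, and none met the FDR. SFRP2, a secreted Wnt modulator of fibroblasts, ranged from 80.3 to 817 in severe WS and from 65.6 to 218 in non-WS.

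CHRND and CHRNG differed more on slide 1 than on slide 2, each slide holding 2 birds per group. CHRND, a subunit of the acetylcholine receptor, averaged 1051 ± 491 in severe WS and 583 ± 204 in non-WS, with a log2 difference of 1.53 on slide 1 and 0.10 on slide 2. CHRNG, the fetal subunit, averaged 1219 ± 561 and 780 ± 372, with 1.22 on slide 1 and 0.13 on slide 2. MUSK, the receptor kinase of the junction, lay between 87.8 and 185 and between 59.8 and 107.3, with log2 differences of 0.78 on slide 1 and 0.38 on slide 2. RAPSN, which clusters the receptor, had 0.51 and 0.37. The groups overlapped in these 4 genes. ASNS, the asparagine synthetase of the amino acid response, averaged 1292 ± 596 against 3846 ± 3217, with non-WS bird 3 at 8590. INSR, the insulin receptor, averaged 1213 ± 454 against 1844 ± 525, and the clock gene NPAS2, which was dim, 38.1 ± 5.00 against 59.8 ± 23.2. RRM2, which supplies nucleotides for DNA synthesis, averaged 199 ± 99.4 against 87.0 ± 31.6. In ASNS, INSR, NPAS2 and RRM2 the groups overlapped as well.

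The lists not described above had medians between -0.12 and 0.20, beside -0.01 for all named genes. They were 0.20 for granulocytes and inflammation, 0.18 for the interferon response, 0.14 for slow and cardiac fibers, 0.10 for antioxidants, 0.06 for cell division and 0.04 for chaperones. They were -0.02 for smooth muscle, -0.05 for proteolysis, -0.06 for both regeneration and endothelium, -0.09 for the circadian clock and for mitochondrial matrix and carriers, -0.10 for the amino acid and ER stress response, -0.11 for nerve and -0.12 for insulin and growth factor signalling. In each of these lists the medians of the severe WS and the non-WS birds overlapped. Some of these medians rested on 1 bird. Without severe WS bird 4 that of the interferon response was -0.03 and that of granulocytes and inflammation 0.01. Without severe WS bird 2 that of slow and cardiac fibers was -0.12, that of cell division -0.17, that of antioxidants -0.03, that of endothelium 0.03 and that of smooth muscle 0.10. The median of chaperones was -0.05 and that of proteolysis 0.05 without non-WS bird 4, that of nerve 0.05 without non-WS bird 2 and that of regeneration 0.07 without severe WS bird 3.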
